A study of Drosophila melanogaster with 12 samples.

Results

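The genes described here encode subunits of respiratory complex I (NADH:ubiquinone oxidoreductase) in progenitor cells of the adult Drosophila melanogaster midgut. They were chosen as the annotated symbols that begin with ND-, without those ending in L or holding the word like, and with deposited values that reached 10 in 3 or more libraries. Of 40 such symbols, 5 were left out by name and 3 fell below the value filter, which left 32 genes among the 8399 tested and the 17617 in the files. The choice used no difference between groups.

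Progenitors carrying green fluorescent protein were sorted from the intestines of mated females, 3 to 4 days old when they were moved to 29 °C for 7 days, and RNA was sequenced from transcript 3′ ends. All flies carried the esgtsGFP driver, which is active in stem cells and enteroblasts and is released by heat. The trxRNAi flies also carried UAS-trxRNAi from stock BDSC#33703, a single construct against trithorax (trx), a histone methyltransferase gene, and the control flies came from a cross of the driver to w1118. Each genotype received dextran sulfate sodium (DSS, 3%), which injures the gut epithelium, or sucrose (5%) for the last 48 h. The 4 groups were therefore trxRNAi DSS, control DSS, trxRNAi sucrose and control sucrose, with 3 libraries in each, and the labels do not say how many guts went into a library or whether libraries came from separate cohorts of flies.

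Complex I takes electrons from NADH, passes them along iron-sulphur clusters to ubiquinone, and uses the energy to pump protons across the inner mitochondrial membrane. Its N module oxidises NADH, its Q module reduces ubiquinone, and its proximal and distal membrane modules hold the pump, whose channels are encoded in mitochondrial DNA. The other subunits come from nuclear genes, so the complex needs the output of both genomes, and accessory subunits surround a core that is shared with bacteria. In the fly midgut, progenitors divide and differentiate to replace lost enterocytes and enteroendocrine cells, and mitochondrial respiration is known to affect that step. The modules and roles given below are those of the human or bovine orthologs.

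The 32 genes comprised 6 of the N module, 8 of the Q module, 7 of the proximal and 10 of the distal membrane module, and ND-MLRQ, whose human ortholog NDUFA4 is now assigned to complex IV. Core subunits made up 7 of them, 3 in the N module and 4 in the Q module. They were spread over the genome, with 8 on the X chromosome, 8 on 2L, 6 on 2R, 7 on 3L, 2 on 3R and 1 on chromosome 4. Their exons covered a median of 857.5 bases, against 2118.5 bases over the 7870 tested protein-coding genes. A neighbour on the other strand started within 500 bases of 14 members (43.8%), against 36.0% of all tested protein-coding genes. Of 14 such neighbours found in the files, 11 were tested, of which 0 passed limma's test in the 4 pairwise comparisons and 1 in the interaction of genotype and feed; between 3.08 and 9.44% of all tested genes passed in these 5 comparisons.

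Several genes of the complex fell outside the rule. ND-MNLL, the ortholog of NDUFB1, was dropped for the last letter of its symbol, and its exons lie wholly within exons of CG45089 on the same strand. ND-B8, the ortholog of NDUFA2, was listed at 0 in all 12 libraries, as were the paralogs ND-20L, ND-24L and ND-B14.5AL. The paralogs ND-51L1 and ND-51L2 did not exceed values of 3 and 1 in any library. The mitochondrially encoded subunits mt:ND1 to mt:ND6 were not analysed here. Among the members, 15 have exons that overlap a gene on the opposite strand and 3 overlap one on the same strand, as ND-MWFE does with Nrk over 15.2% of its exon bases. Whether reads were counted by strand is not stated in the labels or notes, so reads of such pairs may be mixed.

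The deposited values are whole numbers already level between libraries, as read counts are after scaling and rounding, and their totals ran from 5362337 to 6520981 per library. Target levels matched the labels under sucrose, where trx had values of 668, 667 and 448 in trxRNAi libraries and 1114, 1217 and 1313 in control libraries (log2 difference -1.05 ± 0.19, SE, limma adjusted p = 0.00356). The DSS libraries labelled trxRNAi had trx values of 715, 758 and 808, against 841, 1041 and 652 in control DSS libraries (-0.13 ± 0.19, limma adjusted p = 0.772). Lower trx was therefore not seen under DSS, and each direction given for that pair rests on the label alone. The feed comparison in trxRNAi and the interaction use the same trxRNAi DSS libraries. Levels of trx do not check the feed labels, on which every comparison here rests, and the labels were kept as given. The 5 progenitor markers found (mira, spdo, N, Sox21a and zfh2) were above 0 in every library.

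Markers also differed between genotypes under DSS. The stem cell gene mira had values of 237, 248 and 251 in trxRNAi DSS and 1557, 1317 and 652 in control DSS libraries (-2.16 ± 0.32, limma adjusted p = 0.000686). The Notch pathway gene spdo had 33, 20 and 32 in trxRNAi DSS and 77, 76 and 123 in control DSS libraries (-1.63 ± 0.36, limma adjusted p = 0.00703). These 2 of the 5 progenitor markers fell and none rose, while under sucrose spdo rose and the other 4 had no call. The 8 visceral muscle markers summed to at most 0.00198% of the value total in any library, up, sls, Mlc2 and Tm2 were above 0 in all 12, and sls fell under DSS. The hemocyte marker He was at 0 in all 12 libraries. Hml and NimC1 did not exceed 4 in any library. Another hemocyte marker, crq, had values of 1208, 1258 and 1132 in trxRNAi DSS and 582, 667 and 504 in control DSS libraries (1.04 ± 0.15, limma adjusted p = 0.000241). It went the other way under sucrose, with 591, 599 and 585 in trxRNAi and 1021, 1127 and 910 in control libraries (-0.78 ± 0.15, limma adjusted p = 0.00595).

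Markers of other gut cells also differed between genotypes and between feeds. The 12 enteroendocrine markers summed to between 0.0399 and 0.0655% of the value total in trxRNAi DSS libraries and between 0.364 and 0.506% in control DSS libraries. Under sucrose they summed to between 0.0901 and 0.133% in trxRNAi libraries and between 0.297 and 0.464% in control libraries. Under DSS, 10 of the 12 fell and none rose in the libraries labelled trxRNAi. Under sucrose 7 fell, among them NPF, AstC and Orcokinin, which make up much of the sum, and 2 rose, pros (1.38 ± 0.35, limma adjusted p = 0.0385) and Syt4 (4.06 ± 0.40, limma adjusted p = 6.65e-06). Both pros (-3.24 ± 0.35, limma adjusted p = 6.37e-05) and Syt4 (-4.40 ± 0.40, limma adjusted p = 2.64e-06) were among those that fell under DSS. The 10 enterocyte markers took between 0.0388 and 0.0503% in trxRNAi DSS, between 0.0524 and 0.137% in control DSS, between 0.044 and 0.0752% in trxRNAi sucrose, and between 0.0424 and 0.139% in control sucrose libraries. Single enterocyte markers did not all follow these sums. In trxRNAi under DSS, exex (1.87 ± 0.32, limma adjusted p = 0.00113) and Amy-d (1.90 ± 0.49, limma adjusted p = 0.0193) rose, and none was called lower. Under sucrose Jon25Bii rose, and exex (-1.98 ± 0.32, limma adjusted p = 0.00136), Mal-A3 and Npc2d fell. Some markers differed by feed in opposite directions in the 2 genotypes. For DSS against sucrose, Syt4 differed by 3.65 ± 0.40 in control and -4.82 ± 0.40 in trxRNAi. In the same order, the differences were 3.07 and -3.91 for CCHa2, and 1.64 and -2.23 for spdo. They were -2.23 and 1.61 for exex, and -0.80 and 1.02 for crq. Each of these passed limma's test, and every other marker passed it for feed in at most 1 genotype. The part of all these shifts in the differences below was not tested, and fewer cells of a type and less RNA per cell cannot be told apart in pooled cells.

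Complex I genes were higher on average in trxRNAi than in control progenitors under both feeds, by amounts that passed the test for a pair of genes under DSS and for none under sucrose. Under DSS, ND-PDSW and ND-30 rose in the libraries labelled trxRNAi, 1.76-fold and 1.66-fold. These were 2 of 32 genes, while 9.44% of all tested genes passed the same test, and the call of ND-30 was lost under 11 of 16 alternatives. No member passed the test for feed in either genotype, or for the interaction of genotype and feed. Most members were high or low together in the same libraries.

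**Figure D1:**
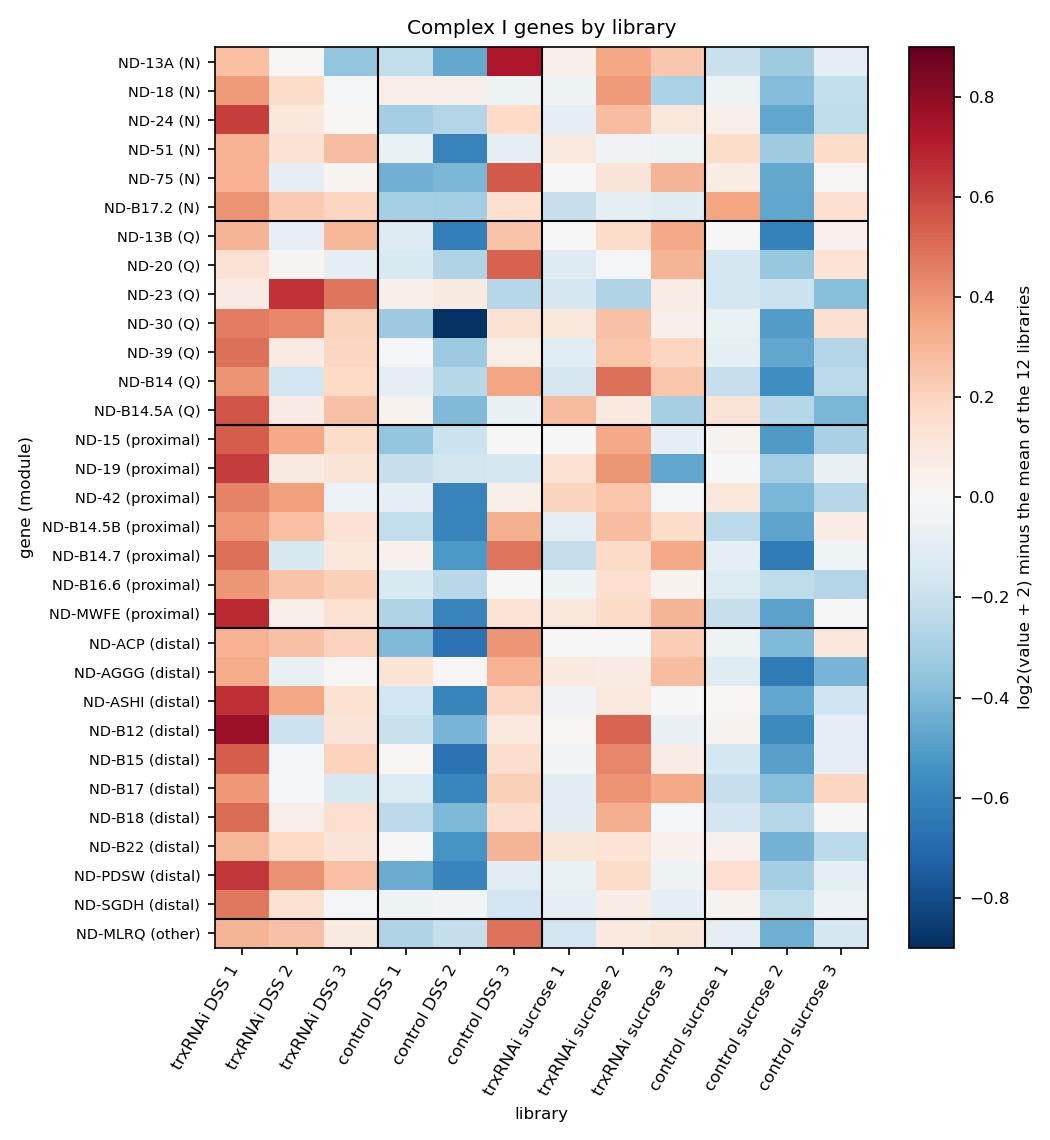
Each row is a complex I gene, 31 in all, grouped by module, and each column is 1 library; colour gives log2 (value + 2) minus the gene's mean over the 12 libraries. Control sucrose 2 and control DSS 2 are low across most rows and trxRNAi DSS 1 is high in most rows.

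The shared part was seen in the mean of the 32 genes, taken as log2 (value + 2) relative to the mean of the 12 libraries. It was 0.41, 0.14 and 0.13 in the trxRNAi DSS libraries and -0.15, -0.39 and 0.16 in the control DSS libraries. Under sucrose it was -0.02, 0.19 and 0.08 in trxRNAi libraries and -0.04, -0.41 and -0.10 in control libraries. Control DSS 3 lay above trxRNAi DSS 2 and 3, so the groups overlapped under DSS, while all trxRNAi libraries lay above all control libraries under sucrose. The pooled SD between replicates was 0.19.

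Within groups, single libraries were high or low for most members. In control sucrose 2, 28 of the 32 genes had the lowest value of their group, and in control DSS 2, 23 did. Control DSS 3 held the highest value of its group for 26 genes, and trxRNAi DSS 1 did so for 30. ND-23 was an exception in trxRNAi DSS 1, where it had the lowest value of its group. As shares of the value total, the 32 genes summed to 0.395, 0.359 and 0.349% in trxRNAi DSS libraries and 0.316, 0.247 and 0.379% in control DSS libraries. Under sucrose the shares were 0.328, 0.356 and 0.356% in trxRNAi libraries and 0.307, 0.236 and 0.282% in control libraries.

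Genes of complexes II to V and of the mitochondrial ribosome showed the same libraries high and low. The mean of 29 genes of complexes II to V was 0.43 in trxRNAi DSS 1 and 0.29 in control DSS 3, against -0.43 in control DSS 2 and -0.44 in control sucrose 2. The mean of 72 mitochondrial ribosomal protein genes was 0.38, 0.15, -0.36 and -0.43 in these libraries in the same order. Cytosolic ribosomal protein genes (81) differed from them, at 0.29 in trxRNAi DSS 1, -0.35 in control DSS 3, -0.11 in control DSS 2 and 0.09 in control sucrose 2. Smaller lists described below were not high in control DSS 3. Their means there were -0.09 for 4 subunits outside the rule, -0.05 for 10 assembly factors and -0.22 for 9 mitochondrial regulators. The regulators were also not low in control sucrose 2 (0.01). Among the 12 libraries, control DSS 3 had the highest values of the enteroendocrine markers CCHa2 (4385), pros (1870), IA-2 (10381), Tk (1001) and CCHa1 (758). Other enteroendocrine markers went the other way. NPF (7481), Orcokinin (1424) and AstA (93) had their lowest control DSS value in that library. A part of these marker levels in its complex I levels was not tested.

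**Figure D2:**
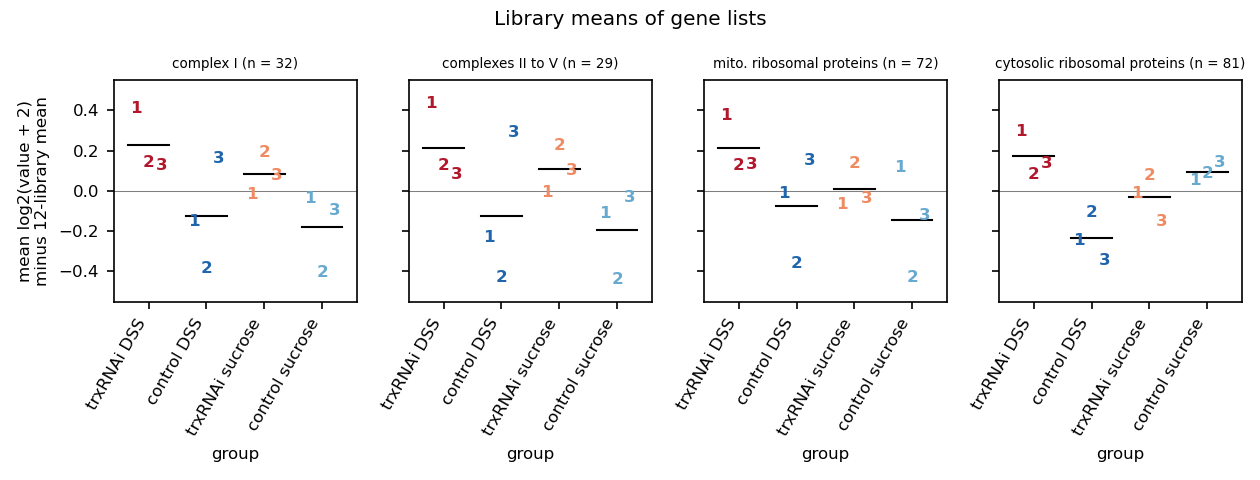
Each panel gives, for 1 list of genes, the mean log2 (value + 2) minus the 12-library mean in every library, with replicate numbers as points and group means as lines. Complex I, complexes II to V and the mitochondrial ribosomal proteins share their low libraries (control DSS 2 and control sucrose 2), and the cytosolic ribosomal proteins do not.

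The members followed their common mean to different degrees. Over the 12 libraries, the correlation of a gene with the mean of the other members had a median of 0.85 and exceeded 0.8 in 20 of 32 genes, with the highest value for ND-ASHI (0.96). Within groups, the mean correlation over the 496 pairs of members was 0.50, against 0.00 over all pairs of tested genes. These are descriptions over libraries that share one scaling factor for all genes. The correlation was 0.19 for ND-23 and 0.59 for ND-18.

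Under DSS, 2 of the 32 genes passed the test, both higher in the libraries labelled trxRNAi, a count below the share of all tested genes given above. The members' log2 difference ran from -0.06 to 0.82 with a median of 0.40 (1.32-fold), and it was above 0 in 29 genes, while the median of all tested genes was -0.01. An unadjusted p under 0.05 was reached by 14 members, all higher in trxRNAi, against 10.7% of all tested genes that were higher at that p. All 3 trxRNAi libraries lay above all 3 control libraries for 10 members, against 12.2% of all tested genes with that order, and for no member the other way round. Since members move together by library, such counts do not add up like independent genes.

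The gene with the largest difference was ND-PDSW (FBgn0021967), ortholog of NDUFB10, an accessory subunit of the distal membrane module. It lies on chromosome 2L from 3466157 to 3467334, plus strand, in the BDGP6.54 annotation, where its start is 45 bases from that of msl-2 on the other strand and its exons overlap no other gene. Its values were 1652, 1414 and 1281 in trxRNAi DSS libraries and 782, 704 and 994 in control DSS libraries. Each trxRNAi value was above each control value. The log2 difference was 0.82 ± 0.17 (SE; 95% interval 0.45 to 1.18), with a limma adjusted p of 0.00551. It was called under each of the 16 alternatives run, with adjusted p between 0.00114 and 0.0313.

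Under sucrose, ND-PDSW had values of 1019, 1195 and 1032 in trxRNAi libraries and 1179, 861 and 1006 in control libraries, which overlapped (0.10 ± 0.17, limma adjusted p = 0.831). Its difference between genotypes was larger under DSS than under sucrose by 0.72 ± 0.24, which did not pass the test (limma interaction, adjusted p = 0.0838). The feed difference was 0.42 ± 0.17 in trxRNAi (limma adjusted p = 0.286) and -0.30 ± 0.17 in control (limma adjusted p = 0.473).

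ND-30 (FBgn0266582), ortholog of the Q module core subunit NDUFS3, lies on chromosome 3L from 3158485 to 3159578, minus strand, and its exons overlap no other gene. It had values of 897, 888 and 751 in trxRNAi DSS libraries and 519, 352 and 718 in control DSS libraries, with no overlap but a gap of little size at control DSS 3. The log2 difference was 0.73 ± 0.22 (SE; 95% interval 0.26 to 1.20), just inside the threshold (limma adjusted p = 0.0488). It missed the threshold under 11 of 16 alternatives, among them leaving out any 1 of the other 5 DSS libraries (adjusted p from 0.0767 to 0.225), and without control DSS 2 the difference was 0.46. Without control DSS 3 it was 0.98 (limma adjusted p = 0.00469). Under sucrose its values were 697, 783 and 675 in trxRNAi libraries and 625, 460 and 720 in control libraries (0.28 ± 0.22, limma adjusted p = 0.58).

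**Figure D3:**
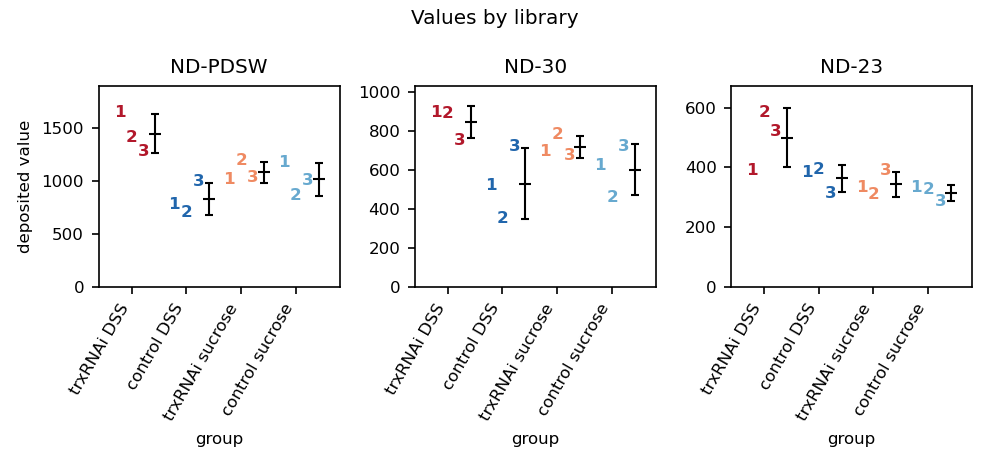
Deposited values of ND-PDSW, ND-30 and ND-23 in each library, with replicate numbers as points and the mean and SD of 3 libraries beside them; each axis starts at 0 and has its own scale. ND-PDSW and ND-30 separate the DSS groups, and ND-23 has its lowest trxRNAi DSS value in library 1, where ND-PDSW has its highest.

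Of the other Q module core subunits, ND-23, ortholog of NDUFS8, which carries a pair of iron-sulphur clusters, had values of 391, 585 and 520 in trxRNAi DSS and 384, 393 and 311 in control DSS libraries. Under sucrose it had 334, 308 and 390 in trxRNAi and 333, 324 and 285 in control libraries. Libraries 2 and 3 of trxRNAi DSS were the highest of the 12, and library 1 lay within the control DSS range. Its difference between DSS and sucrose in trxRNAi, 0.52 ± 0.18, was the largest feed difference of a member in that genotype and did not pass the test (limma adjusted p = 0.163). Between genotypes it differed by 0.45 ± 0.18 under DSS (limma adjusted p = 0.148) and 0.13 ± 0.18 under sucrose (limma adjusted p = 0.786).

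ND-20, ortholog of NDUFS7, the subunit with the last iron-sulphur cluster before ubiquinone, had values of 868, 809 and 748 in trxRNAi DSS and 722, 658 and 1147 in control DSS libraries. Under sucrose it had 732, 790 and 983 in trxRNAi and 713, 626 and 867 in control libraries. Control DSS 3 held its highest value of all, and the groups overlapped under both feeds. The genotype difference was -0.02 ± 0.20 under DSS (limma adjusted p = 0.972) and 0.18 ± 0.20 under sucrose (limma adjusted p = 0.704).

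The 3 core subunits of the N module had no call. ND-51, ortholog of NDUFV1, which binds NADH and the flavin, had values of 1193, 1050 and 1166 in trxRNAi DSS and 922, 631 and 905 in control DSS libraries. These did not overlap, and the difference was 0.49 ± 0.18 (limma adjusted p = 0.101). Under sucrose ND-51 had 1022, 940 and 930 in trxRNAi and 1074, 767 and 1074 in control libraries, with a difference of 0.00 ± 0.18 (limma adjusted p = 0.993).

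ND-24, ortholog of NDUFV2, which holds an iron-sulphur cluster, had values of 531, 368 and 347 in trxRNAi DSS and 278, 287 and 391 in control DSS libraries. Under sucrose it had 325, 418 and 369 in trxRNAi and 357, 249 and 294 in control libraries. The groups overlapped under both feeds, with differences of 0.37 ± 0.21 under DSS (limma adjusted p = 0.316) and 0.31 ± 0.21 under sucrose (limma adjusted p = 0.472). ND-75, ortholog of NDUFS1, which carries several iron-sulphur clusters, had values of 763, 582 and 625 in trxRNAi DSS and 455, 461 and 905 in control DSS libraries. Under sucrose ND-75 had 616, 668 and 762 in trxRNAi and 643, 446 and 620 in control libraries. Control DSS 3 again held the highest value of the 12. The difference was 0.18 ± 0.24 under DSS (limma adjusted p = 0.725) and 0.27 ± 0.24 under sucrose (limma adjusted p = 0.612).

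Among the accessory subunits, ND-AGGG and ND-13A had the lowest differences under DSS. ND-AGGG, ortholog of NDUFB2 in the distal module, had values of 313, 236 and 249 in trxRNAi DSS and 270, 249 and 308 in control DSS libraries. Under sucrose it had 263, 261 and 301 in trxRNAi and 229, 159 and 185 in control libraries. The sucrose groups did not overlap and control sucrose was the lowest of the 4 groups. The genotype difference was -0.06 ± 0.18 under DSS (limma adjusted p = 0.902) and 0.53 ± 0.18 under sucrose (limma adjusted p = 0.111). In control flies it differed by 0.54 ± 0.18 between DSS and sucrose (limma adjusted p = 0.147), and its interaction of -0.59 ± 0.26 did not pass (limma adjusted p = 0.198).

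ND-13A, ortholog of the zinc-binding N module subunit NDUFS6, had values of 304, 253 and 196 in trxRNAi DSS and 215, 182 and 417 in control DSS libraries. Under sucrose it had 260, 320 and 297 in trxRNAi and 218, 201 and 238 in control libraries. The value of 417 in control DSS 3 was its highest, and its sucrose groups did not overlap. The genotype difference was -0.04 ± 0.25 under DSS (limma adjusted p = 0.955) and 0.41 ± 0.25 under sucrose (limma adjusted p = 0.426).

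The modules differed little in their medians under DSS. The median log2 difference was 0.28 over the N module, 0.34 over the Q module, 0.45 over the proximal and 0.40 over the distal membrane module. All 7 proximal genes were above 0, from 0.15 for ND-B14.7 to 0.53 for ND-MWFE, with adjusted p of at least 0.0773 in limma. ND-15, ortholog of NDUFS5, had that lowest adjusted p, and ND-B16.6, ortholog of NDUFA13, followed with 0.42 ± 0.14 (limma adjusted p = 0.0825). In the distal module, ND-ASHI, ortholog of NDUFB8, came next after ND-PDSW with 0.57 ± 0.20 (limma adjusted p = 0.0937). ND-15, ND-ASHI and ND-B16.6 are named because they were nearest to the threshold, a choice made after their values were seen. Their exons overlap other genes, CG3436 (same strand) and Pus10 for ND-15, Fum1 for ND-ASHI and CG3847 for ND-B16.6.

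The count of calls under DSS depended on control DSS 3. Without it, 8 members passed the test, all higher in the libraries labelled trxRNAi, while 11.1% of all tested genes (934) passed in that fit. The members were ND-PDSW, ND-30, ND-ACP, ND-ASHI, ND-MWFE, ND-B14.5B, ND-15 and ND-B16.6. ND-ACP, the mitochondrial acyl carrier protein, then had a difference of 0.80 (limma adjusted p = 0.00457). The median difference over the 32 genes was 0.50 without that library and 0.40 with it. Leaving out any other DSS library left ND-PDSW as the 1 member called.

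Under sucrose, none of the 32 genes passed limma's test, against 4.68% of all tested genes. An unadjusted p under 0.05 was reached by 3 members, all higher in trxRNAi, and by 9.27% of all tested genes in that direction. The members' difference ran from -0.15 to 0.53 with a median of 0.27 (1.21-fold), and all but ND-B17.2 were above 0, while the median of all tested genes was 0.01. For 7 members the 3 trxRNAi libraries lay above the 3 control libraries, against 11.7% of all tested genes, and for none below. Other scalings and tests called no member either, in any of the alternatives run. The median width of a member's 95% interval was 0.86, and 3 of the 32 intervals lay wholly above 0.

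**Figure D4:**
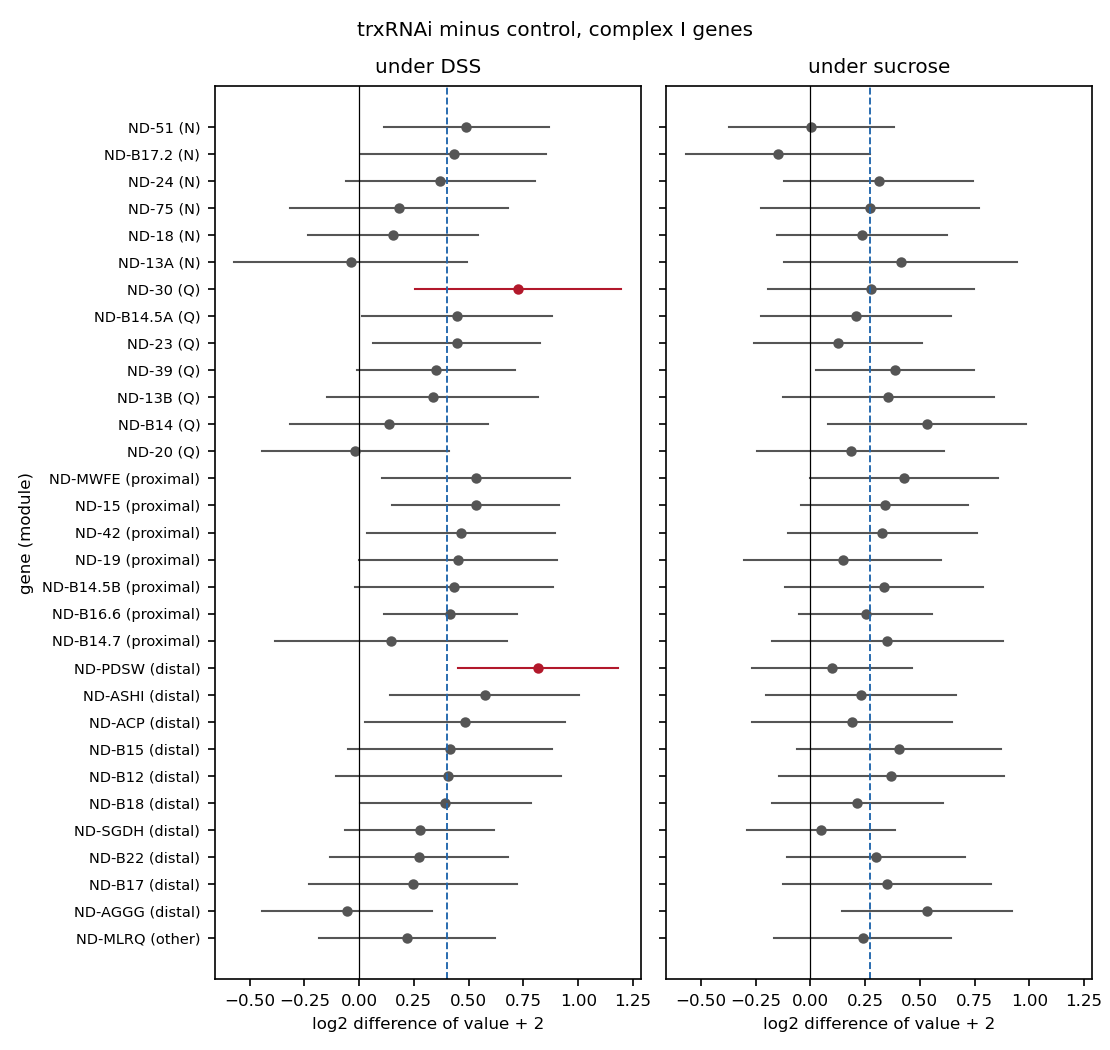
Log2 difference of value + 2, trxRNAi minus control, for 31 of the genes under DSS (left) and sucrose (right), with 95% intervals of the limma model; genes that passed the test are red and the dashed line is the members' median. ND-PDSW and ND-30 are the red genes under DSS, and the medians are 0.40 under DSS and 0.27 under sucrose.

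ND-B14 and ND-AGGG stood at the top of that range and ND-B17.2 and ND-51 at its foot. ND-B14, ortholog of the Q module subunit NDUFA6, had values of 291, 455 and 384 in trxRNAi sucrose and 279, 219 and 272 in control sucrose libraries, with no overlap (0.53 ± 0.21, limma adjusted p = 0.18). Under DSS it had 428, 286 and 366 in trxRNAi and 303, 270 and 413 in control libraries (0.13 ± 0.21, limma adjusted p = 0.785). At the other end, ND-B17.2, ortholog of the N module subunit NDUFA12, had values of 481, 524 and 515 in trxRNAi sucrose and 712, 401 and 618 in control sucrose libraries (-0.15 ± 0.20, limma adjusted p = 0.771). Its control libraries spread on both sides of the trxRNAi ones. Under DSS ND-B17.2 had 737, 655 and 635 in trxRNAi and 451, 448 and 617 in control libraries, which did not overlap (0.43 ± 0.20, limma adjusted p = 0.21).

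The modules were again alike under sucrose, with medians of 0.25 in the N, 0.24 in the Q, 0.34 in the proximal and 0.27 in the distal membrane module. The 4 core subunits of the Q module had a median of 0.16 and its 4 accessory subunits one of 0.37, a difference that was not tested. Control sucrose 2, the library in which 28 members were lowest, moved the median most: it was 0.16 without that library.

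DSS against sucrose gave no called member in either genotype, against 3.55% of all tested genes in trxRNAi and 3.08% in control. An unadjusted p under 0.05 in limma was reached by ND-23 and ND-PDSW in trxRNAi and by ND-AGGG in control. In trxRNAi the difference between feeds ran from -0.24 to 0.52 with a median of 0.14, and was above 0 in 26 of 32 genes. The median was 0.06 without trxRNAi DSS 1, 0.10 without trxRNAi sucrose 1 and 0.23 without trxRNAi sucrose 2. In control it ran from -0.30 to 0.54 with a median of 0.04, and was above 0 in 21 genes. The control median lay between -0.08 and 0.17 when 1 library was left out, and was below 0 without control DSS 3 or control sucrose 2.

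**Figure D5:**
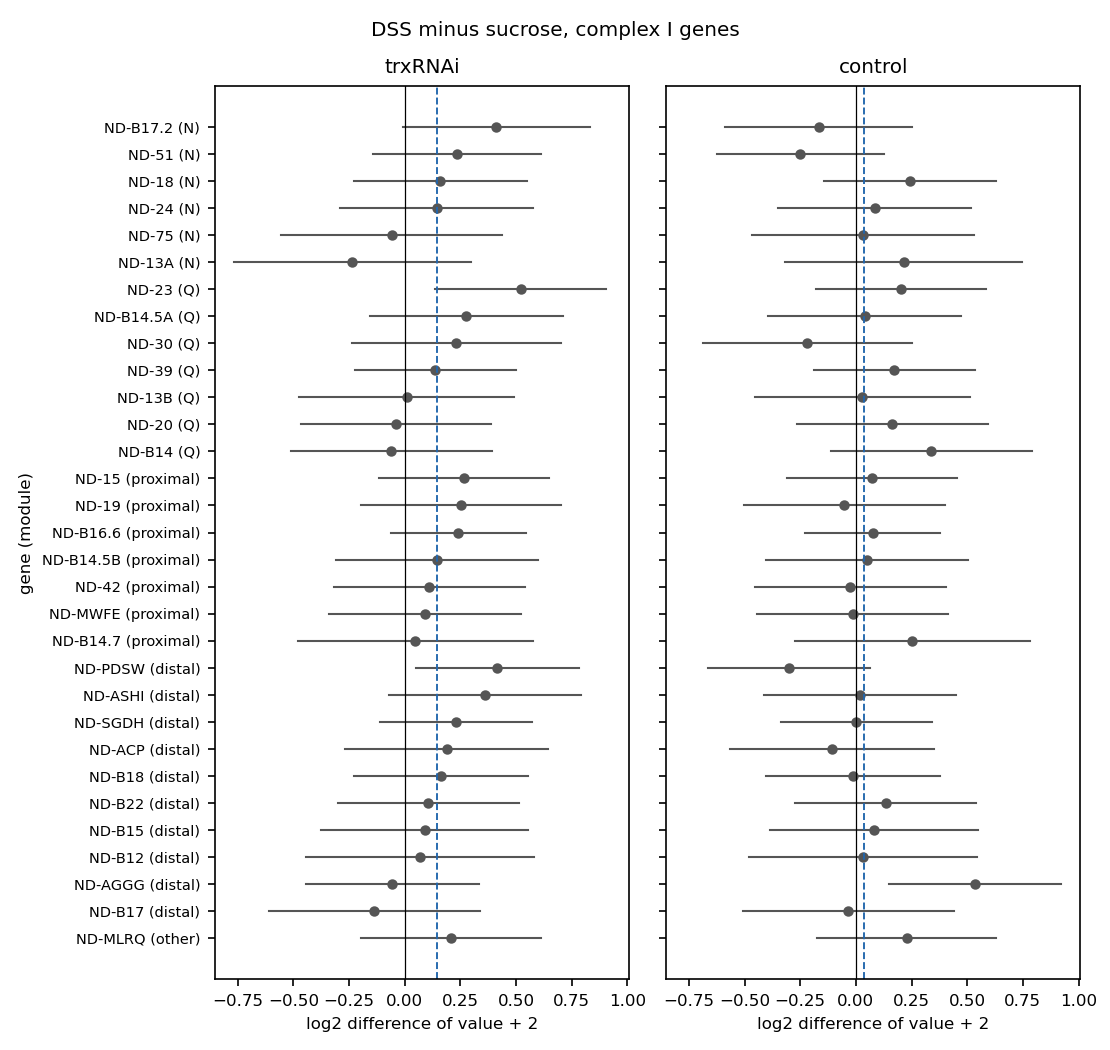
Log2 difference of value + 2, DSS minus sucrose, for 31 of the genes in trxRNAi (left) and control (right), with 95% intervals of the limma model and the members' median as a dashed line. No gene is red, since none passed the test, and the medians are 0.14 in trxRNAi and 0.04 in control.

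The lowest feed differences in trxRNAi were those of ND-13A (-0.24 ± 0.25, limma adjusted p = 0.824) and ND-B17 (-0.14 ± 0.23, limma adjusted p = 0.907). ND-B17, ortholog of the distal subunit NDUFB6, had values of 555, 420 and 383 in trxRNAi DSS and 396, 559 and 536 in trxRNAi sucrose libraries. In control it had 388, 280 and 491 under DSS and 366, 324 and 483 under sucrose, and the feeds overlapped in both genotypes. In control, ND-PDSW and ND-51 had the lowest differences (-0.30 and -0.25), and ND-B14 followed ND-AGGG at the top with 0.34 ± 0.21 (limma adjusted p = 0.529).

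The interaction asks whether the genotype difference under DSS differed, in either direction, from that under sucrose. No member passed limma's test, against 8.86% of all tested genes, and the members ran from -0.59 (ND-AGGG) to 0.72 (ND-PDSW) with a median of 0.10. The median lay between -0.06 and 0.22 when 1 library was left out, and was below 0 without control DSS 2 (-0.06) or trxRNAi DSS 1 (-0.02). ND-PDSW and ND-AGGG had unadjusted p under 0.05. For trx itself the interaction was 0.92 ± 0.27 (limma adjusted p = 0.0416). Its difference between DSS and sucrose was -0.55 ± 0.19 in control (limma adjusted p = 0.161) and 0.38 ± 0.19 in trxRNAi (limma adjusted p = 0.458). The 2 genotype contrasts thus differ in their trx difference, and lower trx was seen under sucrose only.

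Other genes of the pathway gave few calls. The 4 subunits outside the rule, NP15.6 (NDUFB11), NdufV3, NdufA3 and ND-MNLL, were above 0 in each pairwise comparison and had no call. NP15.6 came nearest under DSS, with values of 1064, 800 and 814 in trxRNAi and 642, 559 and 653 in control libraries (0.52 ± 0.18, limma adjusted p = 0.0847). NdufA3 came nearest under sucrose, with 467, 571 and 443 in trxRNAi and 342, 341 and 311 in control libraries (0.57 ± 0.18, limma adjusted p = 0.0875). In both cases no value of one genotype reached those of the other. NdufA3 and ND-MNLL were added to this list after their values were seen.

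Assembly factors build the complex and are not part of it. None of the 10 tested passed the test in any comparison, and their median difference between trxRNAi and control was 0.32 under DSS and 0.06 under sucrose, with 7 and 6 genes above 0. The largest was that of CG17726, the NDUFAF7 ortholog (0.99 ± 0.40 under DSS, limma adjusted p = 0.139). For sicily, the NDUFAF6 ortholog, the DSS difference was 0.45 ± 0.26 (limma adjusted p = 0.339).

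Of 9 regulators of mitochondrial gene expression and number, none passed in any comparison. Their median difference between trxRNAi and control was 0.02 under DSS and -0.07 under sucrose. The transcription factor mtTFB2, which acts on mitochondrial DNA, had 1.14 ± 0.35 under sucrose (limma adjusted p = 0.0778) and 0.75 ± 0.35 under DSS (limma adjusted p = 0.216). For srl, the fly PGC-1 gene, a coactivator of mitochondrial genes, it was 0.31 ± 0.19 under sucrose (limma adjusted p = 0.433) and 0.02 ± 0.19 under DSS (limma adjusted p = 0.971). For clu it was 0.61 ± 0.22 under sucrose (limma adjusted p = 0.136) and 0.66 ± 0.22 under DSS (limma adjusted p = 0.0721). Pink1 went the other way, with -0.73 ± 0.23 under sucrose (limma adjusted p = 0.0875) and -0.22 ± 0.23 under DSS (limma adjusted p = 0.641).

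Nuclear genes of complexes II to V had differences of a like size. Of 29 tested, 3 rose in the libraries labelled trxRNAi under DSS and none under sucrose, with medians of 0.36 and 0.30. Of 72 mitochondrial ribosomal protein genes, 3 rose under DSS and none under sucrose, with medians of 0.29 and 0.12. Of 81 cytosolic ribosomal protein genes, 31 rose under DSS and none under sucrose, with medians of 0.41 and -0.11. Of all tested genes, 9.44% passed under DSS and 4.68% under sucrose, in either direction. For DSS against sucrose in control, 8 of the cytosolic genes were called lower (median -0.33), against 3.08% of all tested genes called. For the interaction 25 were called higher, against 8.86%. No test set the complex I genes against these lists, and these lists were chosen with their values known.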

How the data were processed

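Midgut progenitors sorted by fluorescence gave 12 single-end libraries of transcript 3′ ends, per the labels' protocols. The submitters' processing notes name the build dm6 and the tools HISAT2, Bowtie2, bcl2fastq, limma, edgeR, DESeq and DESeq2, with no roles. The authors' counter, annotation, strand setting and scaling tool were not given in the sources used here. Deposited whole numbers were treated as a score: median-of-ratios factors of all 12 libraries lay between 1.0122 and 1.0145, so the authors' values were already scaled level and rounded, and no count test was run. Total RNA per cell therefore cannot be compared, and depth in reads is unknown.

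Groups and replicate numbers came from sample titles. Symbols and positions came from the Ensembl release 115 annotation of BDGP6.54 (17520 of 17617 identifiers matched). The 8399 genes whose values reached 10 in 3 or more libraries were fitted on log2 (value + 2), a scale that shrinks differences of low genes, with limma 3.58.1 (statmod 1.5.0, R 4.3.3), one mean per group over all 12 libraries, an intensity trend and robust variance. Benjamini-Hochberg adjustment ran over all 8399 genes with a threshold of 0.05. The fit was tested on simulated data with noise independent between genes and with changes larger than any member showed. That simulation does not cover small differences shared by many genes of a library. Errors and 95% intervals are the model's. P-values measure the spread between these libraries, which the labels do not show to be separate cohorts.

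Values of every library are given for members called in any comparison, for the 2 largest and 2 smallest differences of each pairwise comparison, for the member least correlated with the mean of the others, and for the nuclear core subunits. The values of 1 gene that this rule takes are not reported here, and it is left out of the figures. The members, this rule, the gene lists and the cell type markers were chosen with earlier results of these data known. Dl, a progenitor marker on that list, was not analysed here.

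Alternatives were other scalings, filters and pseudocounts (0.5 and 8), no trend, only the groups compared, a replicate block, and each library left out. After seeing the data, the 4 further subunits were added, or ND-MLRQ was left out.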

Additional observations from a re-analysis of the deposited data

How the results depend on the processing

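No called result changed direction. Under DSS, 2 members were called between trxRNAi and control, and 1 (ND-PDSW) was called after rescaling to the mean total, without a filter beyond a value of 1, with a filter of 50, with a pseudocount of 0.5, without trend and robust variance, and with only the groups compared. Rescaling to the mean total without ribosomal protein and noncoding genes called 5, adding ND-15, ND-ASHI and ND-B16.6, and 1 for the interaction (ND-PDSW, adjusted p = 0.0473 in limma). Leaving out single libraries gave 1 to 8 called members under DSS, 8 without control DSS 3, and 0 to 1 for the interaction, 1 again without control DSS 3 (ND-PDSW, limma adjusted p = 0.0215). The adjusted p of ND-30 over its alternatives ran from 0.00469 to 0.225. The cause was not tested.

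Rescaling to the mean total moved the median of all genes to -0.13 for trxRNAi against control under DSS, 0.10 under sucrose, -0.08 and 0.15 for DSS against sucrose in trxRNAi and control, and -0.23 for the interaction. The members' medians became 0.27, 0.37, 0.06, 0.18 and -0.12 in that order, so that relative to all genes they were 0.40, 0.26, 0.14, 0.02 and 0.11. The interaction median of -0.12, against 0.10 in the values reported, therefore depends on the scaling, and also on single libraries (-0.06 to 0.22 with 1 left out). When 1 library was left out, the members' median lay between 0.27 and 0.50 for genotype under DSS, between 0.16 and 0.34 under sucrose, and between 0.06 and 0.23 for feed in trxRNAi.

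Correlations of same-numbered libraries were 0.08, 0.26 and 0.28 between the feeds in control and ran from -0.2 to 0.148 in the other comparisons. No comparison had all 3 over 0.1, the bar for treating the numbers as pairs. With the replicate block, 2 members were called under DSS and 0 elsewhere. With the 4 further subunits, or without ND-MLRQ, the count under DSS stayed at 2.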
